A study of Mus musculus with 2 samples.

Results

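Neuregulins and the receptors of the ErbB family form a signalling system of 4 ligand genes (Nrg1, Nrg2, Nrg3 and Nrg4) and 4 receptor genes (Egfr, Erbb2, Erbb3 and Erbb4). These 8 genes, chosen by name and matched by Ensembl identifier, were described among the 43346 mouse genes quantified, of which 21474 are protein-coding. Total RNA depleted of ribosomal RNA was sequenced from forebrain of mice of the strain B6NTac;B6NCrl/Lap at the age of 0 days, healthy and with males and females pooled, according to the labels. There were 2 stranded paired-end libraries in 1 group, which the labels number as biological replicates 1 and 2. Replicate 1 came from 15 mice and replicate 2 from a pool whose size the labels do not state, and both carry the same donor identifier. The labels name no treatment or genotype beyond the strain, and 1 group gives no contrast, so the comparisons are between genes and transcripts within the tissue and between the tissue isolates.

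Neuregulins are growth factors with an EGF-like domain, made mostly as membrane-bound precursors that proteases release. They bind the receptor tyrosine kinases ErbB3 and ErbB4. ErbB2 binds no known ligand and acts as a partner of the other receptors, the kinase of ErbB3 is weak, and EGFR answers to other EGF-like ligands such as TGF-alpha and HB-EGF. In developing forebrain, Nrg1 and Erbb4 are known for guiding migrating interneurons and for forming their synapses, Nrg3 for axonal contacts onto interneurons, Egfr for progenitors and glial precursors, and Erbb3 for cells of the oligodendrocyte and Schwann lineages. In whole tissue, fewer cells of a type and less RNA per cell cannot be told apart.

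Alternative exons of Erbb4 are known to set whether the receptor can be shed and which proteins bind its tail, so their sequences are shown first. The first pair lies just outside the membrane and is used in a mutually exclusive way. The longer of them, called JM-a, carries the site at which the protease ADAM17 cuts the receptor, and the shorter, JM-b, does not. The third is the CYT-1 exon of the cytoplasmic tail, whose inclusion gives a binding motif for phosphoinositide 3-kinase. All are coding exons on the minus strand of chromosome 1 (GENCODE M21 transcripts, GRCm38, the same assembly as mm10). In JM-a and JM-b the capitals mark the longest run of letters they share, 8 nt, and in the CYT-1 exon they mark the 4 codons that encode a tyrosine, 2 further residues and a methionine.
JM-a exon (exon 16 of Erbb4-201 and Erbb4-202, 75 nt, chr1:68290243-68290317): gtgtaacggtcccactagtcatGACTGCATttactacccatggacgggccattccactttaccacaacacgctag
JM-b exon (exon 16 of Erbb4-205, 45 nt, chr1:68290439-68290483): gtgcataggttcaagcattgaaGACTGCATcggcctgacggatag
CYT-1 exon (exon 26 of Erbb4-201, 48 nt, chr1:68043908-68043955): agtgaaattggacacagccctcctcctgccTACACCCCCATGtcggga

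The libraries held 61441528 and 65097129 expected counts over mouse genes, of which protein-coding genes took 70.6 and 78.4%. Levels are given as coding TPM, the deposited transcripts-per-1000000 value multiplied so that protein-coding genes alone add up to that total in each library. Each ± is an SD over n = 2 libraries, and each interval is the interval of TPM that the authors deposited, rescaled in the same way, which covers read sampling and assignment within a library only. Of markers for the labelled tissue, 6 of 6 telencephalic genes were at 1 coding TPM or more in each library, beside 63.3% of protein-coding genes. So were 6 of 9 diencephalic and 6 of 6 meningeal fibroblast genes. None of 5 Hox genes of hindbrain and spinal cord was, with Hoxa4, Hoxb4 and Hoxd4 at 0 counts, where a count of 0 allows up to 3 counts. The isolates differed in content: 5 of 9 diencephalic, 3 of 6 meningeal fibroblast and 2 of 4 tested osteoblast genes were called higher in replicate 2 (5.43% of all genes tested), and 3 of 4 tested skeletal muscle genes lower (4.88% of all genes tested). A call is an adjusted p under 0.05 with at least a 2-fold ratio of scaled counts, as set out with the ratios between libraries. The part of these tissues in the members' values was not tested.

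Erbb4 and Nrg3 led the family, and most of the other members were several times lower. Erbb4 encodes the neuregulin receptor with both a ligand site and an active kinase. It stood at 42.5 coding TPM in replicate 1 and 51.4 in replicate 2 (47 ± 6.26), from 7343 and 9777 counts. That level exceeded the levels of 79% of protein-coding genes, whose median was 8.25. Egfr, the EGF receptor, had 18.7 and 14.8 coding TPM (16.7 ± 2.74). Erbb2, the ligandless partner, had 3.77 and 4.68 (4.22 ± 0.644). Erbb3, the receptor of weak kinase, had 1.33 and 1.27 (1.3 ± 0.041), from 166 and 174 counts. The receptor values of both libraries fell in the same order, and no receptor's range overlapped another's.

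Among the neuregulins, Nrg3 was the highest in both libraries. Nrg3, whose product binds ErbB4, had 25.9 and 31.8 coding TPM (28.8 ± 4.14), above 69.6% of protein-coding genes. It alone among the 4 neuregulins exceeded that median in both libraries. Nrg2, which also binds ErbB3 and ErbB4, had 6.28 and 7.17 (6.72 ± 0.634). Nrg1, quantified from 1 model that need not cover all its forms, had 6.57 and 5.18 (5.87 ± 0.987). The order of Nrg1 and Nrg2 was not the same in the libraries, so they did not differ beyond their spread. Nrg4 rested on 12 counts in replicate 1 and 3 in replicate 2, which gave 1.7 and 0.227 coding TPM. Of these counts, 10 and 1 were assigned to Nrg4-212, a processed transcript of 519 nt, and none to a protein-coding model. The deposited intervals of Nrg4, 1.76 to 4.94 and 0.693 to 3.26, lay above its own estimates in both libraries, so its level was not determined at this depth.

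**Figure D1:**
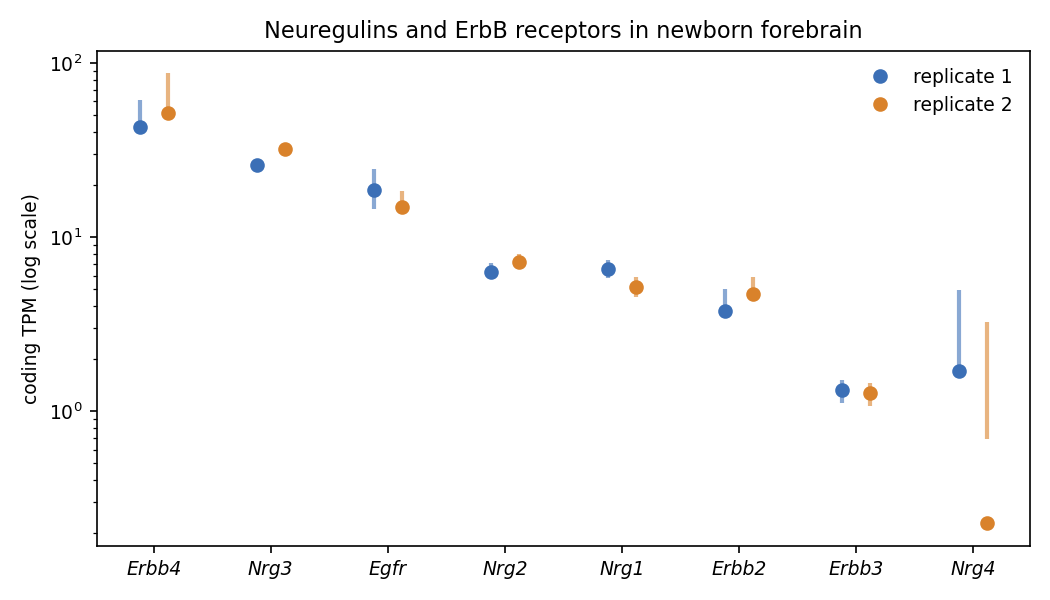
Coding TPM (log scale) of the 8 genes in each library, ordered by their mean. Points are the values of the replicates and bars the deposited intervals of TPM. Erbb4 lies highest at 42.5 and 51.4, and the Nrg4 points are far apart at 1.7 and 0.227.

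Along the order Erbb4, Nrg3, Egfr, Nrg2, Nrg1, Erbb2, Erbb3 and Nrg4, neighbouring genes overlapped between libraries for Nrg2 with Nrg1 and for Erbb3 with Nrg4. Nrg1 and Erbb2 lay close, the lowest Nrg1 value being 5.18 and the highest Erbb2 value 4.68, and their deposited intervals overlapped in replicate 2. The other neighbours were apart in both libraries by values and by intervals. The 4 neuregulins summed to 40.5 and 44.4 coding TPM, of which Nrg3 held 67.8 ± 5.37%. The 4 receptors summed to 66.3 and 72.1, of which Erbb4 held 67.7 ± 5.02%, Egfr 24.3 ± 5.41%, Erbb2 6.08 ± 0.568% and Erbb3 1.88 ± 0.171%. The Egfr share depends on short transcript models. Without models under 750 nt, Egfr had 9.89 and 13 coding TPM and Erbb4 38 and 50.9. Within a library, Erbb4 exceeded Erbb2 by 11.3 and 11-fold and Erbb3 by 32 and 40.4-fold in TPM. Nrg3 exceeded Nrg2 by 4.13 and 4.43-fold and Nrg1 by 3.94 and 6.14-fold in TPM. Counts over the length of the longest coding model gave Erbb4 32.4 and 39.6, Erbb2 4.21 and 5.39, and Erbb3 1.5 and 1.44. By that measure Erbb4 exceeded Erbb2 and Erbb3 by smaller factors than in TPM. Nrg1 was counted from 1 model only, so its ratios and the shares of the neuregulin sum need not cover all its forms. In expected counts, which do not correct for length, the mean ratio of Erbb2 to Erbb4 was 0.0536 against 0.0898 in TPM, and that of Nrg1 to Nrg3 was 0.121 against 0.208.

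The members differ strongly in the size of their genes, which the choice of members did not use. Nrg3 (chromosome 14, 38368952 to 39473088), Erbb4 (chromosome 1, 68032186 to 69108059) and Nrg1 (chromosome 8, 31814551 to 32884029) span 1104, 1076 and 1069 kb, each longer than 99.8% of protein-coding genes. Nrg2 (chromosome 18, 36017652 to 36197380), Egfr (chromosome 11, 16752203 to 16918158) and Nrg4 (chromosome 9, 55220222 to 55326844) span 180, 166 and 107 kb. Erbb2 (chromosome 11, 98412470 to 98437716) and Erbb3 (chromosome 10, 128567523 to 128589652) span 25.2 and 22.1 kb, longer than 59.7 and 56% of protein-coding genes. The deposited posterior SD of the gene count was 0 for all 8 members in both libraries, so the quantification divided none of their reads with other genes. Small genes lie within some of them on the same strand, 8 in Erbb4, 1 in Nrg3 and 1 in Erbb3. Opposite-strand genes such as Egfros, Nrg3os and Mien1 overlap Egfr, Nrg3 and Erbb2, and the libraries were stranded. Whether the quantification used strand is not given in the sources.

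Erbb4 was quantified from 5 transcript models, and the 3 that carry alternative exons described here took most of its TPM. Erbb4-202, with the JM-a exon and without the CYT-1 exon, had 18 and 22.7 coding TPM in replicates 1 and 2. Erbb4-201, with JM-a and CYT-1, had 8.42 and 8.81. Erbb4-205, with JM-b, had 11.5 and 19.3. Erbb4-202 was thus the leading model in both libraries, with 42.4 and 44.3% of the gene's TPM. The deposited intervals of Erbb4-202 did not overlap between the libraries, at 16.7 to 19.3 and 21.2 to 24.1, nor did those of Erbb4-205, at 10.1 to 12.9 and 17.5 to 20.9. Those of Erbb4-201 overlapped, at 7.07 to 9.67 and 7.31 to 10.1. The share of all transcripts with intervals apart was not computed. Intervals apart, here or for the models below, are therefore not shown to be particular to these models. A further model of 240 nt, Erbb4-204, took no counts, but by posterior mean TPM it held 12.2 and 18.6% of the gene. The deposited gene-level intervals of Erbb4 reached 60.8 and 87.1 coding TPM, far above the estimates of 42.5 and 51.4.

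The CYT-1 exon was thereby assigned to a minority of the full-length models. Among Erbb4-201 and Erbb4-202, the model with the 48-nt exon printed above held 31.8 and 27.9% of TPM (29.9 ± 2.78%), and 31.4 and 27.5% of counts. These models also differ at the start, where Erbb4-202 has a first exon of 385 nt and Erbb4-201 one of 82 nt, so their division rests on both differences. The JM-b model held 30.4 and 38% of the TPM of the 3 models (34.2 ± 5.41%), but 6.74 and 9.17% of their counts. Erbb4-205 is an incomplete model of 2196 nt that ends within the coding sequence, against 11782 and 12037 nt for the others, and it is the only JM-b model quantified. Its share of TPM therefore depends on its annotated length, and the share of JM-b among all Erbb4 molecules was not measured directly.

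**Figure D2:**
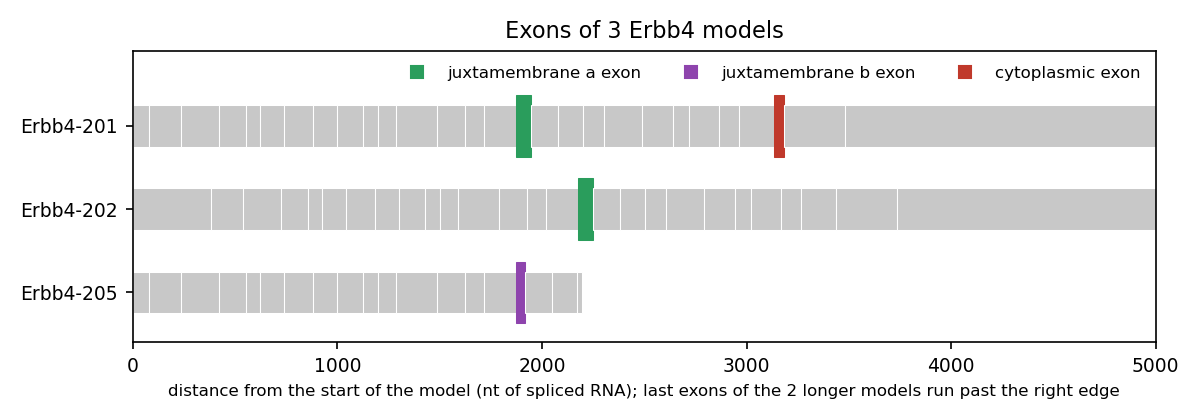
Exons of 3 Erbb4 models drawn to scale along the spliced RNA, from the start of each model. Coloured taller boxes are the JM-a, JM-b and CYT-1 exons of 75, 45 and 48 nt, and Erbb4-205 ends at 2196 nt.

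Most Egfr counts lay on 1 long model, while much of its TPM in replicate 1 lay on short ones. Egfr-201, the full receptor of 10208 nt, had 8.71 coding TPM in replicate 1 (8.24 to 9.09) and 12.2 in replicate 2 (11.6 to 12.5), and was higher in replicate 2 by non-overlapping intervals. Egfr-205, a processed transcript of 446 nt, took 30.1 counts and 37% of the gene's TPM in replicate 1 but 1.52 counts and 2.41% in replicate 2. The summed Egfr level was therefore lower in replicate 2 by coding TPM while its counts were higher, 2011 and 2970. Without models under 750 nt, Egfr stood at 9.89 and 13 coding TPM, and counts over the length of the longest coding model gave 10.5 and 14.2. Egfr-202, a coding model of 655 codons against 1210 that ends before the exons of the kinase domain, had 1.18 and 0.817 coding TPM, with overlapping intervals. Erbb4-203, a retained-intron model of 744 nt, held 50 counts and 10.8% of TPM in replicate 1 and 5.93 counts and 1.01% in replicate 2. Mean fragment lengths implied by the deposited effective lengths were 248.7 nt and 269.7 nt. Across 6906 protein-coding genes with short and long models, those under 750 nt held on average 12% and 11.9% of a gene's TPM in replicates 1 and 2, and more in replicate 1 for 41.2% of genes. The part of fragment length in the Egfr and Erbb4 values was not tested.

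**Figure D3:**
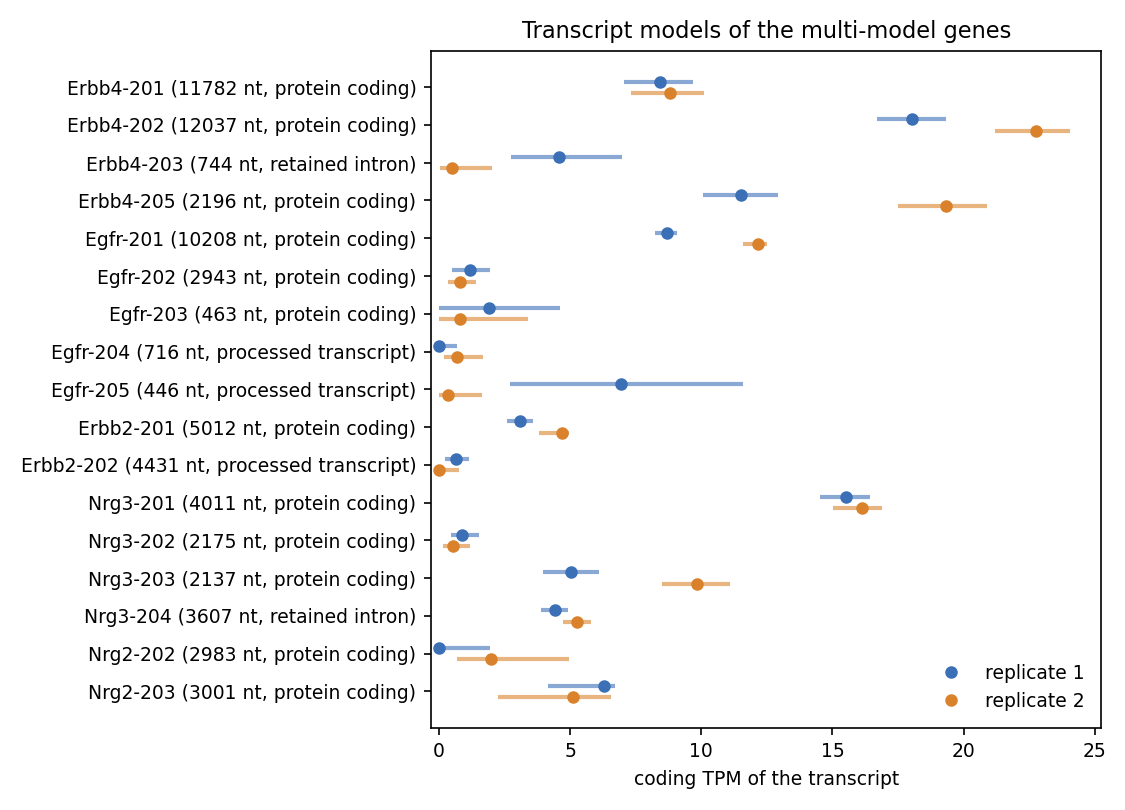
Coding TPM of each transcript model with a value above 0 for 5 genes with several models, by library, with the deposited intervals as bars. Erbb4-202, Erbb4-205, Egfr-201, Erbb2-201 and Nrg3-203 are higher in replicate 2 with intervals apart, and Egfr-205 is at 6.94 in replicate 1 and 0.363 in replicate 2. The share of all transcripts with intervals apart was not computed.

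Nrg3 models differ in a 72-nt coding exon just before the last exon, shown because it separates the leading model from the next, with no letters in capitals.
Nrg3 exon (exon 9 of Nrg3-201, minus strand, GRCm38, chr14:38371277-38371348): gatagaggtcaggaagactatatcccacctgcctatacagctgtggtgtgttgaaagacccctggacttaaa

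Nrg3-201, with this exon, had 15.5 and 16.1 coding TPM in replicates 1 and 2, and its intervals overlapped. Nrg3-203, without it, had 5.02 and 9.85, with intervals of 3.97 to 6.11 and 8.52 to 11.1. Among the 3 coding models the exon was held by 72.4 and 60.8% of TPM (66.6 ± 8.22%). The models also differ at their first and last exons, so the exon alone does not divide their reads. Nrg3-204, a retained-intron model, took 17 and 16.6% of the gene's TPM.

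Nrg1 was quantified from a single model, Nrg1-201, against 18 models in GENCODE M21, of which 12 are coding. Nrg1-201 lacks the exons of 178 and 122 nt that 8 of those 12 coding models hold, and its first exon is not the first exon of any of the 8. As background, the type I and type II forms of neuregulin-1 carry an immunoglobulin-like domain before the EGF-like domain, and type III forms start with a cysteine-rich domain in its place. Reads in exons outside this model had no Nrg1 model to be counted to, so the level of Nrg1 need not cover all forms of the gene. The deposited length was 2103 nt, not that of the M21 entry, so the exon content is taken from the later annotation. Erbb3 also had 1 model. Erbb2-201, which encodes the full receptor, held 82.6 and 100% of TPM, the rest in replicate 1 being Erbb2-202, a processed transcript with 60.2 counts and a posterior SD of 20.7. Nrg2-203 held 100 and 71.9% of the TPM of Nrg2, on 380 and 339 counts. Nrg2-202 held the other 28.1% in replicate 2, on 131 counts with a posterior SD of 72.3, and had 0 counts with a posterior SD of 37.6 in replicate 1. The division between these Nrg2 models was therefore poorly fixed. Of the 6 genes with several models, all 6 had the same leading model by TPM in both libraries. By counts 5 did, Nrg4 being the exception with 1 count each on 3 models in replicate 2.

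The libraries were then compared gene by gene, which tests the reads of these libraries and not a condition. A gene was called at an adjusted p under 0.05 (exact binomial test, Benjamini-Hochberg over 17544 genes) and at least a 2-fold ratio of TMM-scaled counts, and 10.3% of all genes tested were called. None of the 7 members tested was called. All 7 had a mean of at least 100 counts. Among genes at that depth 377 of 13681 were called, a lower share than over all genes tested. Nrg4 was under the filter of a mean of 10 counts. At an unadjusted p under 0.05, 4 of the 7 passed, as did 67.7% of all genes. At an adjusted p under 0.05 and any fold 3 passed, as did 65% of all genes. That count was 6 when library totals replaced TMM and 5 with totals over protein-coding genes without mitochondrial ones, beside 70.6 and 65.3% of all genes. At a 1.5-fold ratio, which 19.6% of all genes passed with an adjusted p under 0.05, none of the 7 was called.

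The largest ratio among the 7 was that of Nrg1, which was lower in replicate 2 with a log2 ratio of -0.50 (SE 0.13, exact binomial test, adjusted p = 0.000312), from 267 and 229 counts. Egfr had a log2 ratio of 0.28 (SE 0.042) and Erbb4 one of 0.13 (SE 0.022). Erbb2 had 0.20 (SE 0.096), Nrg3 0.06 (SE 0.045), Nrg2 0.03 (SE 0.099) and Erbb3 -0.21 (SE 0.16). The members' median log2 ratio was 0.06 and that of all genes tested -0.00. The median absolute log2 ratio of all genes tested was 0.26, and 5 of the 7 members lay within that size, Nrg1 and Egfr being the exceptions.

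**Figure D4:**
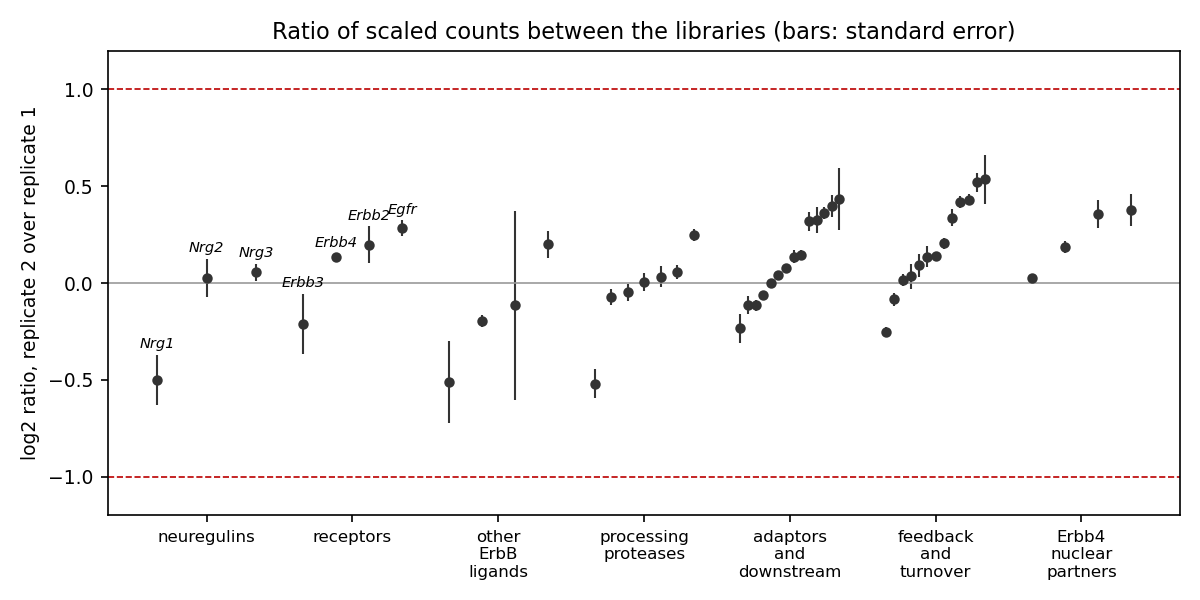
Log2 of TMM-scaled counts in replicate 2 relative to replicate 1 for tested members and pathway genes, by list. Bars are standard errors. Dashed lines mark 2-fold. All points lie within them, from Psen2 at -0.52 to Lrig3 at 0.53.

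Other ligands of the family bind mainly EGFR, and 2 of 7 reached 1 coding TPM in both libraries. Tgfa, which encodes TGF-alpha, had 66.3 and 58.2 coding TPM (62.3 ± 5.7). These estimates were above those of every neuregulin and receptor in both libraries. In replicate 2 the deposited interval of Erbb4, 50 to 87.1, held the Tgfa value, so their order there is not fixed. Hbegf, of heparin-binding EGF, had 16.1 and 20.7 (18.4 ± 3.26). Egf itself had 1.03 and 0.817, and Epgn 0.517 and 0.499. Areg had 4 and 0 counts, Ereg 0 and 9, and Btc 4 and 14, so their levels are not fixed at this depth. None of the 4 ligands tested was called between the libraries, beside 10.3% of all genes tested.

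Proteases that release neuregulins or cut ErbB4 were all expressed, 7 of 7 at 1 coding TPM or more with a median of 21.5 ± 0.696. Adam17, the sheddase of JM-a ErbB4, had 16 and 17.5 coding TPM. Adam10 had 18.5 and 21, and Adam19, which can process neuregulin-1, 15.7 and 19. The range of Adam19 overlapped those of Adam10 and Adam17, which lay apart from each other. Bace1, the beta-secretase that cuts type III neuregulin-1, had 39.7 and 46.8. Of the gamma-secretase genes, Ncstn was highest at 60 and 70.3, and Psen2 had 22 and 18.2.

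Adaptors and downstream genes reached 1 coding TPM in 14 of 14 cases, with a median of 48.8 ± 7.05. Dlg4, the synaptic scaffold that binds ErbB4, was highest at 207 and 220 coding TPM. The regulatory subunits of phosphoinositide 3-kinase Pik3r1 and Pik3r3 had 109 and 112, and 40.2 and 49.3. The adaptor Grb2 had 85.5 and 88.4, and Shc3, the Shc adaptor of neurons, 64.2 and 66.7 against 15.3 and 19 for Shc1. Of the transcription factor genes, Stat5b had 17.4 and 21.7, and Stat5a was lowest of the list at 1.92 and 2.54. The near-identical copies Stat5a and Stat5b share reads, so the division between them is uncertain. None of the 14 was called between the libraries, beside 10.3% of all genes tested.

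Genes of feedback and receptor turnover were also all at 1 coding TPM or more, 13 of 13 with a median of 29.6 ± 5.14. The ubiquitin ligase gene Nedd4 was highest at 379 and 453 coding TPM. Rnf41, whose product Nrdp1 degrades ErbB3, had 77 and 72.1, and Itch, a ligase of ErbB4, 44.2 and 47.4. Among inhibitors of the receptors, Lrig1 had 35.7 and 51.5 and Errfi1 21.6 and 33.6, and Lrig3 was lowest at 2.36 and 3.86. Erbin, which binds ErbB2, had 32.6 and 49.3. The nuclear partner list holds genes of proteins known to meet the intracellular fragment of ErbB4. In that list Ncor1 was highest at 113 and 117, and Tab2 had 43.8 and 60.1. Wwox had 10.3 and 16.7, and Yap1 was lowest by mean at 10.4 and 14. In all 5 pathway lists together, 40 of 45 genes reached 1 coding TPM in both libraries, beside 63.3% of protein-coding genes. Of their 42 tested genes none was called, beside 10.3% of all genes tested and 377 of the 13681 with a mean of at least 100 counts. An unadjusted p under 0.05 was reached by 31 of the 42, a threshold that 67.7% of all genes tested passed.

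**Figure D5:**
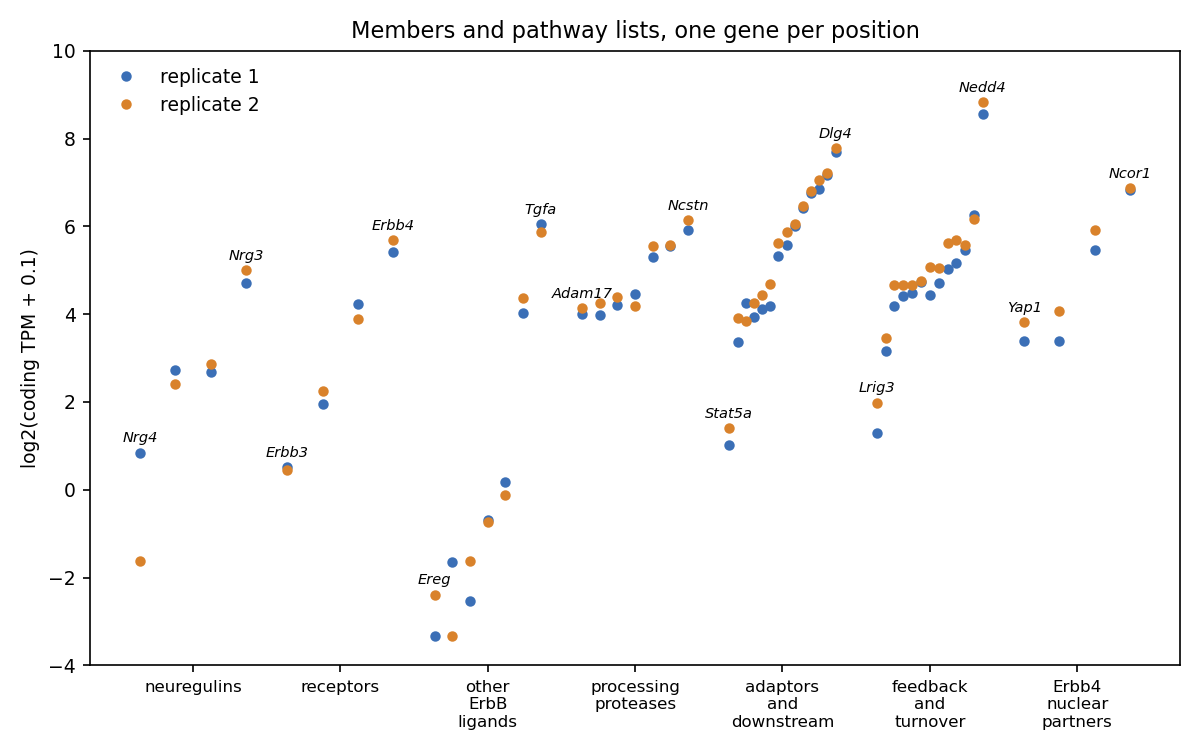
Log2(coding TPM + 0.1) of each gene in each library, by list, with the lowest and highest gene of a list named. Tgfa stands apart from the other ErbB ligands, and all genes of the proteases, adaptors, feedback and nuclear partner lists lie above 0.

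Cell types known to use these receptors were compared by their marker lists. Genes listed as markers of interneurons, the cells in which Erbb4 is best known, had medians of 54.1 and 70.6 in replicates 1 and 2. All 9 of 9 were at 1 coding TPM or more, beside 63.3% of protein-coding genes. Whole tissue does not separate interneurons from other cells that share these markers. Oligodendrocyte precursor markers, a lineage known for Erbb3 and Egfr, had 5 of 5 at 1 coding TPM or more and medians of 34.6 and 32.7. Radial glial markers had medians of 89.4 and 104. Schwann cell markers, also a lineage of Erbb3, were low, with summed levels of 5.46 and 4.9 coding TPM. Of its defining genes Pmp2 had 0 and 5 counts, and Prx was highest by mean at 1.85 and 2.32. Which cells carried each receptor was not tested, because the libraries are of whole tissue.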

How the data were processed

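Gene and transcript quantifications of 2 libraries (stranded, paired 101-nt reads, RNA over 200 nt) were used as deposited, on mm10 with GENCODE M4 per the text deposited with each sample. The aligner is not given in the sources used here, nor is the quantifier. The authors deposited expected counts, posterior mean counts with their SD, TPM with interval bounds of unstated level, FPKM, and isoform percentages (percent of a gene's TPM). No column of another sample was present.

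Symbols, exons and sequences came from GENCODE M21 on the same assembly, which matched 98% of 43346 genes. TPM was rescaled over protein-coding genes (factors 7.38 and 4.54). Expected counts were rounded, scaled by TMM from edgeR 4.0.16 (R 4.3.3) and compared by a two-sided exact binomial test with Benjamini-Hochberg adjustment over genes whose mean count was 10 or more, with 0.5 added for ratios. The SE combines counting error and the posterior SD. DESeq2 1.42.0 gave alternative size factors. With n = 2 libraries in 1 group, no quasi-likelihood test can be made, and SDs measure only the spread between these isolates. Intervals, SEs and floors cover read sampling and assignment within a library only, and may be too narrow, since amplified reads that carry no molecular identifiers do not count single molecules. The comparison was also run on simulated counts with planted changes, which held counting error only and no spread between isolates. That run checks the code and cannot give the error rate in these data. Python 3.11.15, numpy 2.4.6, scipy 1.17.1, pandas 2.3.3, Biopython 1.88 and matplotlib 3.10.9 served the other steps.

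All 8 members were named, with transcripts of at least 10% mean share and, per pathway list, at least the highest and lowest genes. Transcripts under that share (Erbb4-203, Erbb4-204, Egfr-202 and Erbb2-202) were named after their values were seen. No gene was named for likeness, since 2 libraries give no pattern. Values of some list genes are not reported here. Members and lists were chosen with earlier results of these data known.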

Additional observations from a re-analysis of the deposited data

How the results depend on the processing

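The number of members at 1 coding TPM or more in both libraries, 7 of 8, was 7 or 8 under the other settings except with deposited TPM over all features, where it was 3, where features other than protein-coding genes share the total. With no count filter, 1 member was called between the libraries, Nrg4, beside 2560 of 21394 genes tested. Its log2 ratio was -2.12 (SE 0.87), from 12 and 3 counts. Under every other setting no member was called. Over all genes, the 1809 calls of 17544 genes tested became 377 of 13681 at a mean of at least 100 counts. Calls numbered 3434 at 1.5-fold and 1100 of 15187 among protein-coding genes alone. With library totals the median log2 ratio of all genes moved to 0.19 and the share of calls higher in replicate 2 from 52.6 to 66.7%. Under that scaling Erbb3 was at -0.02 (-0.21 by TMM) and Nrg1 at -0.30, and no log2 ratio of the 7 tested members changed sign under any setting run. The 6 ratios of members to Erbb4 or Nrg3 stayed under 1 under posterior mean TPM and expected counts, but Nrg4 to Nrg3 moved from 0.0363 to 0.0928 and 0.00387, and the ratios of Erbb2 to Erbb4 and Nrg1 to Nrg3 moved by over 1.5 times with expected counts, which carry no length. By posterior mean TPM, or by counts, 5 of 6 genes had the same leading model. Counts over the longest coding model, a quantity chosen after seeing the data, as were shares of counts, the 750-nt limit and the 1.5-fold rule for pathway genes, gave Erbb4 36 ± 5.06 and Egfr 12.4 ± 2.63. Without replicate 1 or without replicate 2, the number of pathway genes at 1 coding TPM was 40 or 41. No paired analysis was possible because there is 1 group. Depth limits Nrg4, Areg, Ereg and Btc, and leaving out a library leaves no test between libraries.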
